A study of Rattus norvegicus with 12 samples.

Results

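MHC class II presentation genes were followed through 12 libraries of rat intestine as 8 genes listed by name, out of 18749 genes in the deposited count table, and all 8 passed the filter on low counts that left 15704 genes for testing. The 8 genes are RT1-Da and RT1-Db1, the chains of the rat D molecule, RT1-Ba and RT1-Bb, the chains of the rat B molecule, RT1-DMa and RT1-DMb, the chains of a peptide-loading helper, Cd74, the invariant chain, and Ciita, the class II transactivator. The members were chosen by name and not by a measured value, although earlier results of the same data were known when they were chosen.

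MHC class II molecules hold peptides from engulfed proteins on the cell surface for CD4 T cells to inspect. The alpha and beta chains assemble in the endoplasmic reticulum with the invariant chain, proteases of the endosome then trim that chain, and the DM molecule exchanges its last fragment for a peptide. Ciita is a co-activator that docks on a shared promoter module of these genes, and interferon gamma induces it through Irf1 among other factors. In the gut, dendritic cells, macrophages and B cells carry class II molecules, and epithelial cells can carry them too.

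Polyadenylated RNA was sequenced from wild-type rat intestine in 3 groups of 4 samples, in a series on the small intestine after removal of the colon. The group postSTC (replicates 1, 2, 5 and 7) is labelled postoperative, the group preSTC (replicates 1, 5, 7 and 9) preoperative, and the group preCTC (replicates 1, 5, 7 and 9) as taken ahead of sham surgery. The labels leave STC and CTC without explanation and name no strain, age or sex, and samples from after sham surgery were not analysed here. Whether replicates come from different animals is not labelled, and p-values therefore reflect only the spread among these samples, which may be technical.

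Libraries held 30095656 to 39374682 counts, and levels below are CPM, or counts scaled to library size, with factors from the TMM method (trimmed mean of M values). The groups also differed in genes of bowel region, which were looked up with earlier results known. Slc10a2, the ileal bile acid transporter, stood at 155 to 261 CPM in postSTC, 524 to 578 in preSTC and 0.105 to 0.458 in preCTC. Hoxa13, which marks the hind end of the gut, stood at 6.80 to 23.4 CPM in postSTC, 0.028 to 0.0777 in preSTC and 40.6 to 64.7 in preCTC. Hoxb13, another gene of the hind gut, varied widely inside preCTC, with 42.2 to 125 CPM in postSTC, 0.056 to 0.311 in preSTC and 1.44 to 444.5 in preCTC. In any comparison with preCTC the region sampled and the group cannot be told apart, and these genes also moved between postSTC and preSTC. Library postSTC7 stood apart, with 17.1% of its counts from Semg1, a seminal vesicle gene at 0.00959% or less in every other library, and its TMM factor was 0.567.

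The promoters of the class II chains carry the module on which Ciita acts, so a stretch of 100 bases ending at -26 from the annotated start is shown for the 6 of 8 members found in RefSeq's promoter table of assembly GRCr8. Capitals mark the letters CTGATTGG or its core TGATTGG, the Y box that binds NF-Y, and GCAAC, part of the X box that binds the RFX complex.
RT1-Da: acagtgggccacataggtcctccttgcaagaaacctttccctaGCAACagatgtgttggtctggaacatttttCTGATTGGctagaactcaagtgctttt
RT1-Db1: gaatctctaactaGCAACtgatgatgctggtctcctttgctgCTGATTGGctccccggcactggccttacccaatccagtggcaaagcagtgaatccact
RT1-Ba: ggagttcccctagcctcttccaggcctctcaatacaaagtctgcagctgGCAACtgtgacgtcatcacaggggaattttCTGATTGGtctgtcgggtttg
RT1-Bb: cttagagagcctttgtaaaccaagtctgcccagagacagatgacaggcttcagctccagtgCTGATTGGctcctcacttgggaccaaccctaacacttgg
RT1-DMa: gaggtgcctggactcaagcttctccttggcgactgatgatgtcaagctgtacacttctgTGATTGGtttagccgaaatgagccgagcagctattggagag
Cd74: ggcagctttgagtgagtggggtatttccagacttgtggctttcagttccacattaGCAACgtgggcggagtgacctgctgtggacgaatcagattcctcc
The stretches lie at chr20:4515290-4515389 on the plus strand for RT1-Da, chr20:4560188-4560287 on the minus strand for RT1-Db1, chr20:4576932-4577031 on the plus strand for RT1-Ba and chr20:4604144-4604243 on the minus strand for RT1-Bb. They lie at chr20:4712361-4712460 on the minus strand for RT1-DMa and chr18:56527081-56527180 on the plus strand for Cd74. RT1-DMb and Ciita are named only.

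The letters CTGATTGG stood in the promoters of RT1-Da, RT1-Db1, RT1-Ba and RT1-Bb, beginning at -52, -83, -46 and -64. Members and all 33469 promoters were searched on both strands over the 250 bases before the start, longer than the stretch shown. Of these promoters, 3.19% hold these letters. RT1-DMa held the shorter TGATTGG at -66, which 6.42% of promoters hold and which lies inside the longer motif. The letters TAGCAAC began at -84 in RT1-Da, -114 in RT1-Db1 and -72 in Cd74, against 2.88% of promoters. RT1-Ba held only the core GCAAC, at -76, and 29.5% of promoters hold that core. These letters were chosen after the sequences had been read, and a match is a description of the sequence alone.

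Set per length as FPKM, as the authors deposited it, Cd74 was the most abundant member and Ciita the least abundant in all 12 libraries. In preSTC the mean FPKM was 2265 ± 469 for Cd74, 922 ± 145 for RT1-Da, 546 ± 329 for RT1-Ba, 433 ± 159 for RT1-Bb and 342 ± 192 for RT1-Db1 (SD, n = 4). It was 165 ± 11.1 for RT1-DMb, 108 ± 26.5 for RT1-DMa and 13.4 ± 3.23 for Ciita (SD, n = 4). The ranges of RT1-Ba, RT1-Bb and RT1-Db1 overlapped one another in preSTC, so their order did not stand out from the spread, whereas the ranges of Cd74 and RT1-Da did not overlap. FPKM divides by all counts of a library, so every FPKM of postSTC7 is lowered by its seminal transcripts, and the lowest postSTC value of each member came from that library.

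**Figure D1:**
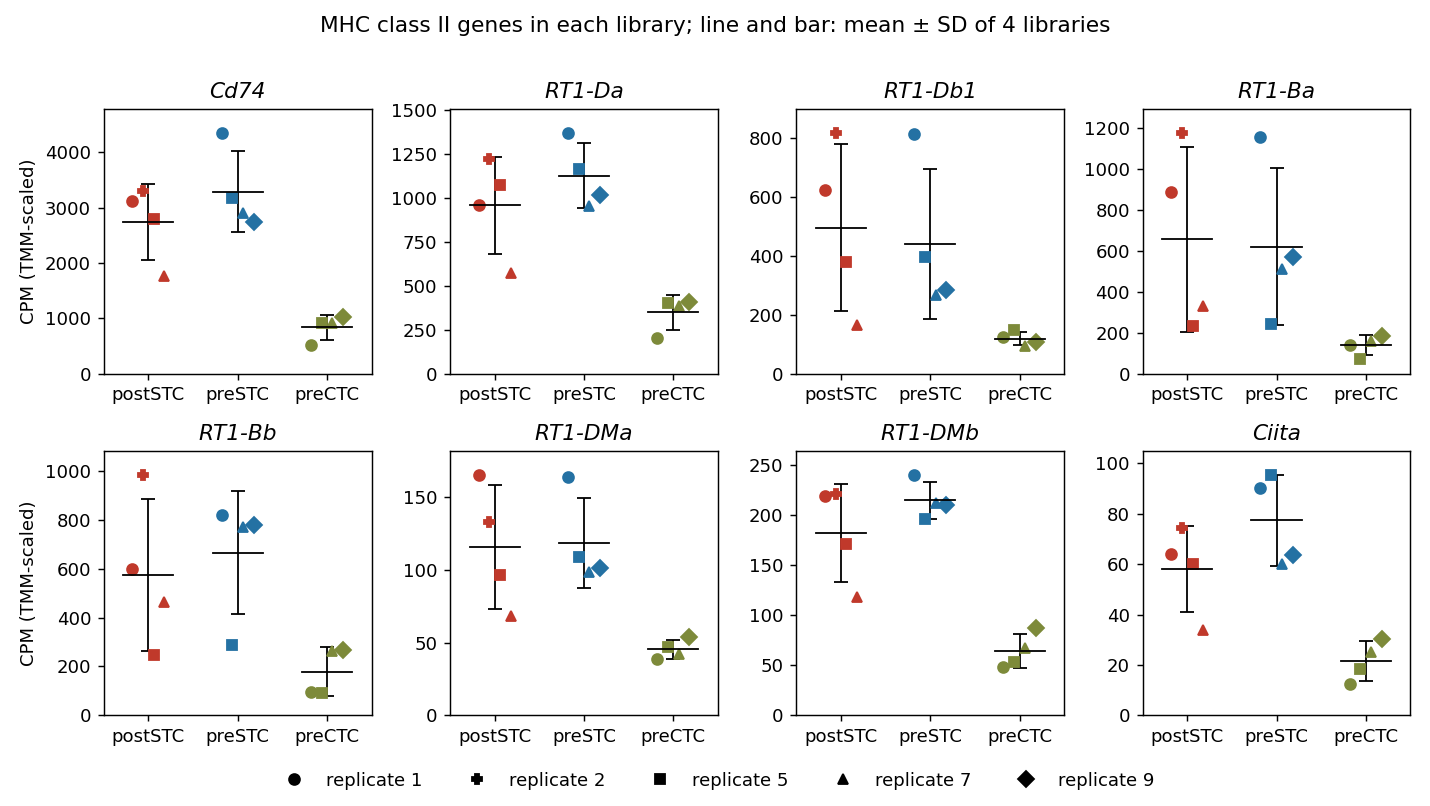
Level of each of the 8 genes in CPM (TMM-scaled, linear axis from 0) in the libraries of postSTC, preSTC and preCTC, with a marker shape per replicate number and the mean ± SD of 4 libraries as line and bar. For Cd74, preCTC sits at 519 to 1021 CPM, below the 1771 to 3297 CPM of postSTC and the 2743 to 4347 CPM of preSTC.

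The comparison of preSTC against preCTC set the preoperative intestine of the STC group beside the intestine ahead of sham surgery. All 8 genes were higher in preSTC, by 1.38 to 2.15 on the log2 scale, each with a Benjamini-Hochberg adjusted p below the threshold of 0.05 (edgeR quasi-likelihood test). Of all genes tested, 38.7% were called in this comparison, 19.1% as higher and 19.6% as lower. In bulk tissue, more cells of a type and more RNA per cell cannot be told apart. The comparisons share their libraries, so their results are not independent of each other.

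Cd74 escorts the class II chains to the endosome. It had 4347, 3168, 2906 and 2743 CPM in preSTC1, preSTC5, preSTC7 and preSTC9, against 519, 916, 910 and 1021 CPM in preCTC1, preCTC5, preCTC7 and preCTC9. Every preSTC library exceeded every preCTC library, and edgeR gave a log2 fold change of 1.97 ± 0.27 (SE, adjusted p = 0.000175). Ciita, the transactivator, had 90.1, 95.5, 60.3 and 63.5 CPM in those preSTC libraries, against 12.6, 18.3, 25.3 and 30.3 CPM in preCTC. Its groups did not overlap, and its log2 fold change was 1.84 ± 0.30 (SE, edgeR adjusted p = 0.000577).

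RT1-Da, the D alpha chain, had 1369, 1167, 955 and 1018 CPM in preSTC1, preSTC5, preSTC7 and preSTC9, against 204, 403, 384 and 410 CPM in preCTC1, preCTC5, preCTC7 and preCTC9. The D beta chain RT1-Db1 had 813, 399, 267 and 285 CPM in preSTC, against 126, 150, 95.8 and 108 CPM in preCTC. Neither gene overlapped between the groups, and the log2 fold changes were 1.69 ± 0.27 and 1.88 ± 0.46 (SE, edgeR adjusted p = 0.000487 and 0.00766). RT1-Db1 spread over a wider range inside preSTC than RT1-Da did, with preSTC1 far above the other libraries. RT1-Db2, another D beta gene that was looked up after values were seen, had 0.0895 to 4.53 CPM over all libraries.

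The B chains also spread widely. RT1-Ba, the B alpha chain, had 1156, 244, 514 and 571 CPM in preSTC, against 140, 72.1, 163 and 185 CPM in preCTC, with libraries in the same order as above. RT1-Bb, the B beta chain, had 818, 290, 772 and 780 CPM in preSTC, against 97.4, 90.6, 262 and 267 CPM in preCTC. Both were low in preSTC5 next to the other preSTC libraries, and neither overlapped between the groups. The log2 fold change was 2.15 ± 0.57 for RT1-Ba and 1.89 ± 0.50 for RT1-Bb (SE, edgeR adjusted p = 0.011 each). The lowest preSTC value of RT1-Bb, 290 CPM, stood close to the highest preCTC value, 267 CPM.

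The DM chains load peptide onto the other class II molecules. RT1-DMb had 196 to 241 CPM in preSTC and 48.7 to 87.3 CPM in preCTC, and RT1-DMa had 98.9 to 164 CPM in preSTC and 38.6 to 53.7 CPM in preCTC. The groups did not overlap for either gene. RT1-DMb had a log2 fold change of 1.74 ± 0.22 and RT1-DMa of 1.38 ± 0.25 (SE, edgeR adjusted p = 0.00011 and 0.00132). No member lost its call when any library was left out, and CPM did not overlap between the groups for 8 of 8 members, against 45% of all genes tested (22.5% higher in preSTC). With a leukocyte marker score as a covariate, RT1-Bb was no longer called (edgeR adjusted p = 0.0606), and limma on log2(FPKM + 0.1) did not call RT1-Db1 (adjusted p = 0.0609).

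The comparison of postSTC against preSTC set postoperative beside preoperative intestine. None of the 8 genes was called by edgeR's quasi-likelihood test, in which 18% of all genes tested were called, 11.1% as higher and 6.9% as lower. The count was also 0 at an unadjusted p under 0.05, where the lowest p of the edgeR model was 0.179, and DESeq2 and limma voom called 0. Log2 fold changes ran from -0.41 ± 0.29 for Ciita to 0.17 ± 0.45 for RT1-Db1 (SE, edgeR adjusted p = 0.345 and 0.819). The median over the members was -0.22, beside 0.044 over all genes tested.

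Cd74 had 3131, 3297, 2795 and 1771 CPM in libraries postSTC1, postSTC2, postSTC5 and postSTC7, against 4347, 3168, 2906 and 2743 CPM in preSTC1, preSTC5, preSTC7 and preSTC9. Its log2 fold change was -0.26 ± 0.26 (SE, edgeR adjusted p = 0.513), and the groups overlapped. Ciita had 64.0, 74.3, 60.2 and 34.1 CPM in postSTC, against 90.1, 95.5, 60.3 and 63.5 CPM in preSTC. Library postSTC7 held the lowest postSTC value of both genes, as it did for RT1-Da, RT1-Db1, RT1-DMa and RT1-DMb. RT1-Da had 962, 1221, 1072 and 576 CPM in postSTC, against the 955 to 1369 CPM of preSTC.

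The remaining chains spread widely in postSTC too. RT1-Ba had 888, 1176, 232 and 331 CPM in libraries postSTC1, postSTC2, postSTC5 and postSTC7, against 244 to 1156 CPM in preSTC. RT1-Bb had 600, 984, 247 and 464 CPM in postSTC, against 290 to 818 CPM in preSTC, and RT1-Db1 had 623, 818, 381 and 167 CPM, against 267 to 813 CPM. The groups overlapped for all 3 genes. Log2 fold changes were 0.080 ± 0.54 for RT1-Ba, -0.21 ± 0.48 for RT1-Bb and 0.17 ± 0.45 for RT1-Db1 (SE, edgeR adjusted p = 0.936, 0.792 and 0.819), so only differences well above these standard errors could have been detected.

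The replicate number was taken to pair postSTC with preSTC libraries, since same-numbered libraries deviated together from their group means (correlations over genes of 0.236, 0.158 and 0.168). Differently numbered libraries of these groups stood at -0.171 to 0.13, with postSTC2 and preSTC5 the highest. The labels do not say what the number marks. With the number as a block, 0 of 8 members were called in the fit of 12 libraries, in which 11.1% of genes were called, and 0 of 8 in the fit of the 8 libraries compared, in which 0.432% were. The log2 fold changes of all 8 members were then below 0, at -0.52 to -0.14 in the fit of 12 libraries and -0.68 to -0.25 in the fit of 8, and RT1-Db1 and RT1-Ba had changed sign. Within the 3 pairs, 7 of the 8 members were lower in postSTC in every pair, as were 23.8% of all genes tested. RT1-DMa was the exception, with 166 CPM in postSTC1 against 164 CPM in preSTC1. The pair of number 7 holds postSTC7, and these pair counts were made after the values had been seen and carry no test.

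The comparison of postSTC against preCTC set the operated intestine beside the intestine ahead of sham surgery. All 8 genes were higher in postSTC, by 1.35 to 2.23 on the log2 scale in edgeR's quasi-likelihood test, where 16.6% of all genes tested were called, 9.27% as higher and 7.37% as lower. Cd74, at 1771 to 3297 CPM in postSTC and 519 to 1021 CPM in preCTC, had an edgeR log2 fold change of 1.71 ± 0.26 (SE, adjusted p = 0.00113). Ciita, at 34.1 to 74.3 CPM in postSTC and 12.6 to 30.3 CPM in preCTC, had 1.43 ± 0.29 (SE, edgeR adjusted p = 0.0068). CPM did not overlap between the groups for 7 of the 8 members, against 18.1% of all genes tested (9.54% higher in postSTC). RT1-Bb overlapped, with 247 CPM in postSTC5 and 267 CPM in preCTC9. In limma on log2(FPKM + 0.1), 2 of the 8 were called, Cd74 and RT1-DMb (adjusted p = 0.0341 and 0.0417), beside 9.99% of all genes. With the replicate block, 7 of 8 were called in the fit of 12 libraries, beside 8.91% of all genes. In the block fit of the 8 libraries compared, 0 of 8 were called, beside 0.98% of all genes.

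RT1-Da and RT1-Db1 were higher in postSTC, with edgeR log2 fold changes of 1.45 ± 0.26 and 2.05 ± 0.47 (SE, adjusted p = 0.00323 and 0.0113). RT1-DMa and RT1-DMb were higher by 1.35 ± 0.25 and 1.505 ± 0.22 (SE, edgeR adjusted p = 0.00392 and 0.000779). The calls of the B chains rested on single libraries. RT1-Ba, with 2.23 ± 0.57 (SE, edgeR adjusted p = 0.0202), reached 0.0564 without postSTC2, 0.0546 without preCTC1 and 0.0502 without preCTC5. RT1-Bb, with 1.68 ± 0.50 (SE, edgeR adjusted p = 0.0383), lost its call without postSTC1, postSTC2, preCTC1, preCTC5, preSTC1, preSTC7 or preSTC9, with adjusted p of 0.0502 to 0.108, and with the leukocyte covariate at 0.0709. The median over the members was 1.59 here and 1.86 in preSTC against preCTC, beside 0.036 and -0.023 over all genes tested.

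**Figure D2:**
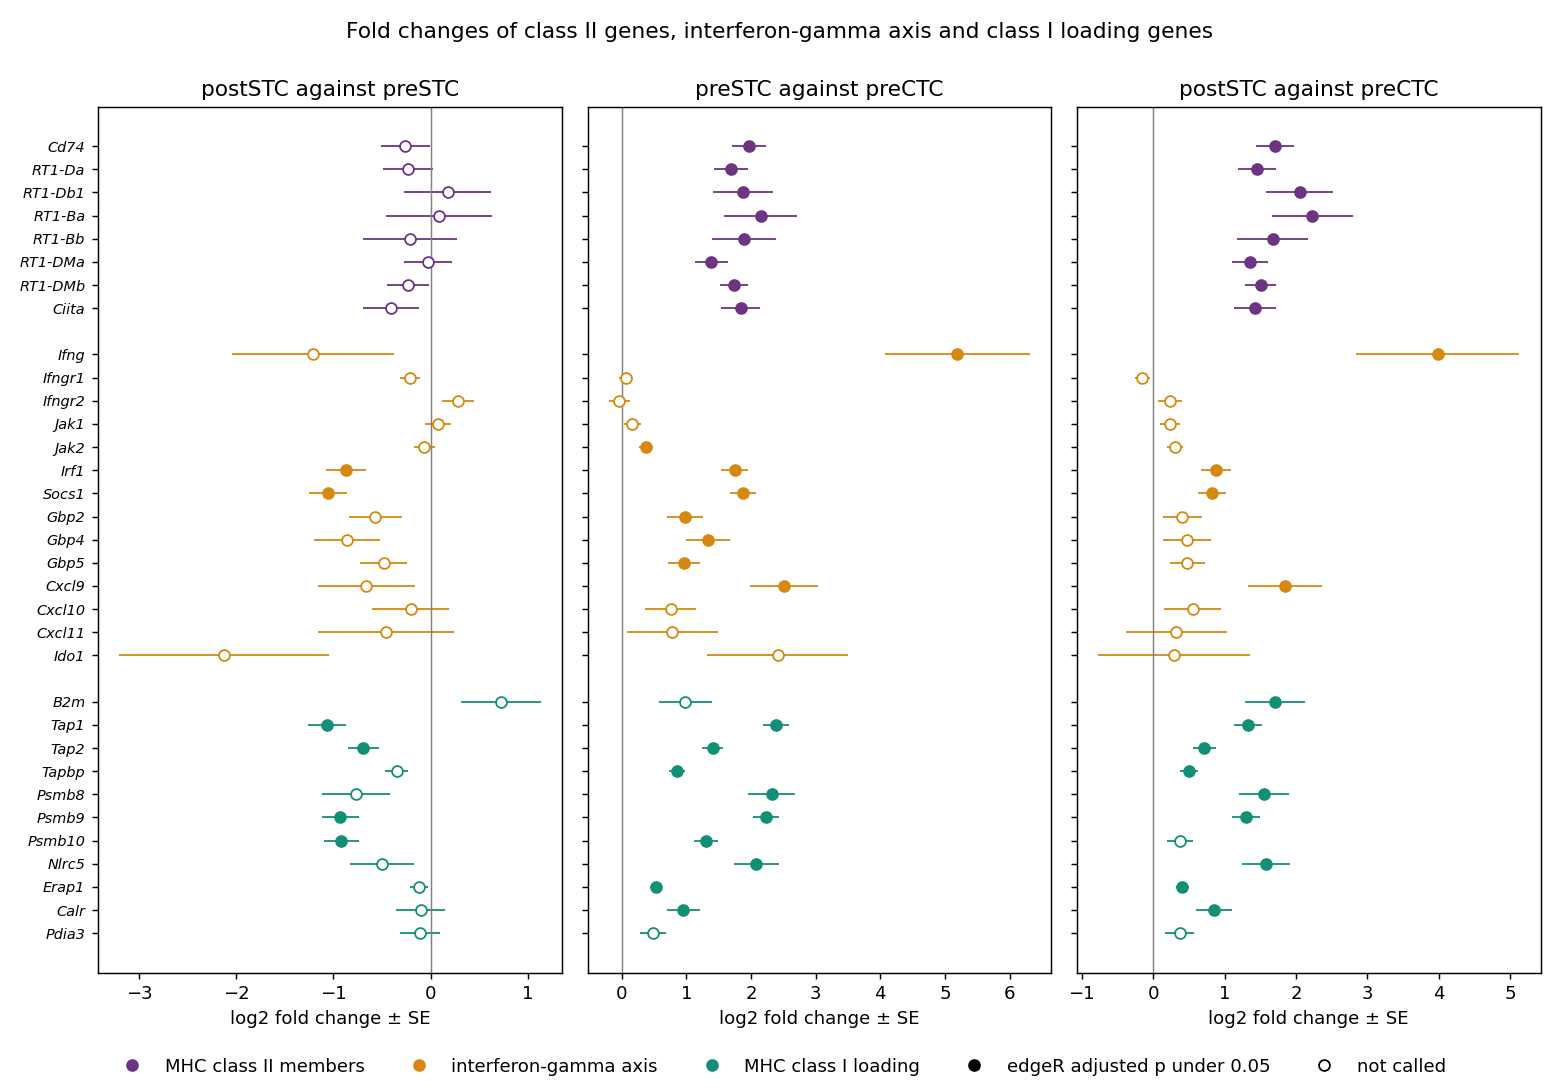
Log2 fold change ± SE of the 8 class II genes, 14 genes of the interferon-gamma axis and 11 genes of MHC class I loading in each comparison, from edgeR's quasi-likelihood model of 12 libraries. Filled points passed an adjusted p of 0.05. In postSTC against preSTC no class II gene is filled, while 2 interferon-gamma axis genes and 4 class I loading genes are filled on the lower side.

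Some genes of the interferon-gamma axis were called in postSTC against preSTC, where no member was, but the list was not tested against the members. Of 14 interferon-gamma axis genes, 2 fell in postSTC against preSTC (Irf1 and Socs1), 8 were higher in preSTC than in preCTC and 4 were higher in postSTC than in preCTC. The matching shares of all genes tested were 6.9%, 19.1% and 9.27%. Irf1, a transcription factor induced by interferon, had 176, 174, 158 and 104 CPM in libraries postSTC1, postSTC2, postSTC5 and postSTC7, against 260, 279, 292 and 290 CPM in preSTC. Every postSTC library lay below every preSTC library, and edgeR gave a log2 fold change of -0.87 ± 0.21 (SE, adjusted p = 0.0155). For Socs1, a feedback inhibitor, the log2 difference was -1.05 ± 0.20 (SE), with an edgeR adjusted p of 0.00486. Median log2 fold changes of the list were -0.53, 0.97 and 0.44 in the 3 comparisons, beside -0.22, 1.86 and 1.59 for the members.

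Of 11 class I loading genes, 4 fell in postSTC against preSTC (Tap1, Tap2, Psmb9 and Psmb10), and 9 were higher than preCTC in preSTC and in postSTC. The matching shares of all genes tested were 6.9%, 19.1% and 9.27%. Tap1, part of the peptide pump of class I, had 105, 75.4, 96.03 and 62.7 CPM in postSTC, against 231, 139, 178 and 160 CPM in preSTC. Its groups did not overlap, and edgeR gave a log2 fold change of -1.06 ± 0.20 (SE, adjusted p = 0.00486). Psmb9, an immunoproteasome subunit, had -0.93 ± 0.19 (SE, edgeR adjusted p = 0.00806). B2m, the class I light chain and the most abundant gene of the list, had 15600 CPM in postSTC7 and 3706 to 4135 CPM in the other postSTC libraries. With the replicate block, 1 interferon-gamma axis gene and 5 class I loading genes were lower in the fit of 12 libraries, and 0 of either list in the fit of 8. Irf1 had an edgeR adjusted p of 0.0642 in the fit of 12 libraries. Of all genes, 708 of 15704 tested were lower in the fit of 12 and 8 of 15286 in the fit of 8. With so few called in the fit of 8, the count of 0 there says little about these lists.

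The ratio of Cd74 to these genes within a library was examined after their values had been seen. Cd74 stood at 55.7, 81.3, 54.1 and 52.6 times the FPKM of Tap1 in postSTC1, postSTC2, postSTC5 and postSTC7, against 35.0, 42.5, 30.3 and 31.9 times in preSTC. The groups did not overlap (exact permutation test, two-sided, p = 0.0286, n = 4 each, the smallest p that 4 against 4 allows). It stood at 22.1, 23.6, 21.9 and 21.1 times the FPKM of Irf1 in postSTC, against 20.8, 14.1, 12.4 and 11.8 times in preSTC (exact permutation p = 0.0286, n = 4 each). In preCTC the ratio to Irf1 was 12.4, 13.5, 12.6 and 11.8. A family of 30 tests was run, on 10 ratios in 3 comparisons, and the adjusted p of each of these differences was 0.172, above the threshold. With 4 against 4 libraries that correction can be passed only where most of the 30 tests reach the smallest p, so it says little about any single ratio.

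Of 13 other genes of class II loading and presentation, 2 rose and 1 fell in postSTC against preSTC. The replicate block with 8 libraries called none, in a fit that called only 0.432% of all genes. Of all genes tested, 11.1% were called higher and 6.9% lower in that comparison. The endosomal proteases Ctsl and Ctsd rose by 1.19 ± 0.22 and 1.29 ± 0.28 on the log2 scale, and the co-stimulatory ligand gene Cd80 fell by 1.30 (SE 0.28), with edgeR adjusted p of 0.00445, 0.00959 and 0.00978. Ctsl had 98.2 to 231 CPM in postSTC, against 66.3 to 79.4 CPM in preSTC. Ctsd had 565.5 CPM in postSTC7 and 185, 235 and 298 CPM in postSTC1, postSTC2 and postSTC5, against 113 to 144 CPM in preSTC. In preSTC against preCTC, 6 of the 13 were higher and 3 were lower, beside 19.1% and 19.6% of all genes tested. Ifi30, a reductase of the endosome, was higher by 0.65 ± 0.14, Cd80 by 1.48 ± 0.28, and Ctsl and Ctsd had log2 fold changes of -1.20 ± 0.22 and -1.27 ± 0.28 (SE, edgeR adjusted p = 0.0038, 0.00156, 0.00117 and 0.00371). In postSTC against preCTC, 0 of the 13 were called by edgeR and 0 by DESeq2, and 2 passed an unadjusted p of 0.05. There edgeR called 16.6% of all genes tested.

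Of 7 factors that bind the class II promoter module, Nfya, a subunit of NF-Y, fell in postSTC against preSTC by 0.33 (SE 0.096) on the log2 scale (edgeR adjusted p = 0.0351). That call was lost without postSTC1, postSTC5, preSTC1, preSTC5 or preSTC7 (adjusted p of at most 0.106) and with the replicate block (0.0948). In preSTC against preCTC, Rfx5, the DNA-binding subunit of RFX, and Nfya were higher by 0.27 ± 0.090 and 0.29 ± 0.096 (SE, edgeR adjusted p = 0.033 and 0.0308). Both calls were lost without several single libraries, with adjusted p of at most 0.101 and 0.0955. In postSTC against preCTC, 0 of the 7 were called by edgeR and 0 by DESeq2, and 0 passed an unadjusted p of 0.05. Of all genes tested, 6.9% were lower in postSTC against preSTC and 19.1% higher in preSTC against preCTC. In postSTC against preCTC, 16.6% were called.

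**Figure D3:**
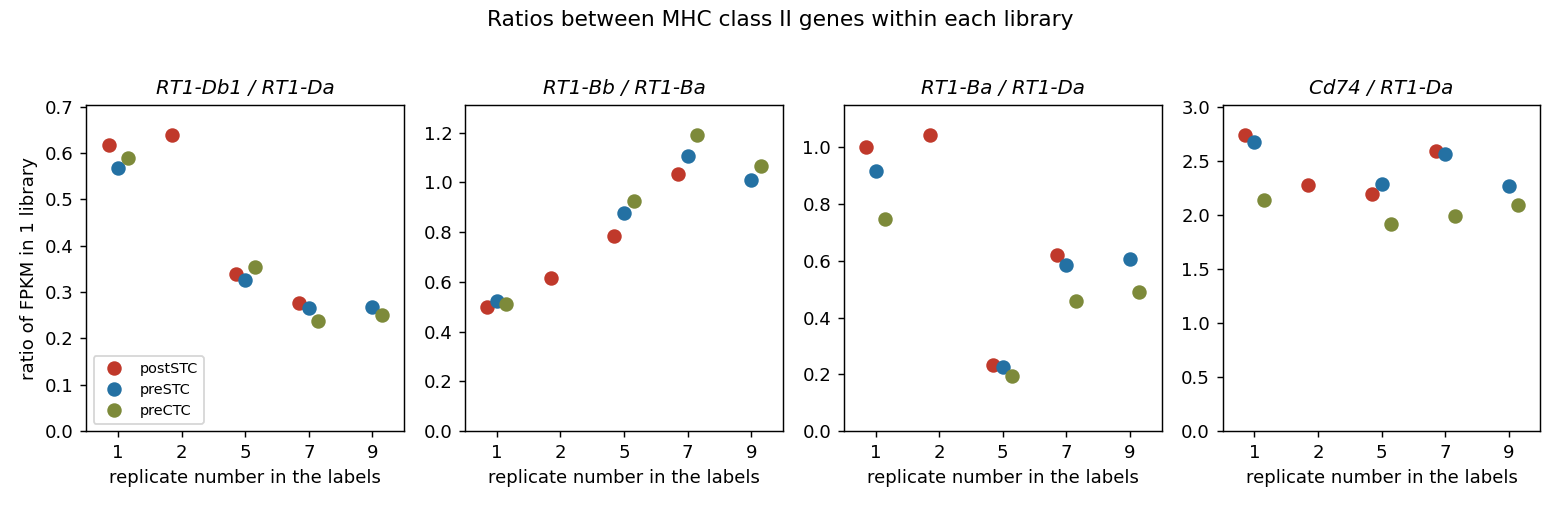
Ratio of FPKM between pairs of class II genes within each library (linear axes from 0), arranged by the replicate number in the labels and coloured by group. For RT1-Db1 over RT1-Da, replicate 1 sits at 0.567 to 0.618 and replicate 7 at 0.238 to 0.276 whichever group the library belongs to, while Cd74 over RT1-Da stays between 1.92 and 2.74.

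Ratios between class II chains sorted by replicate number. RT1-Db1 stood at 0.618, 0.567 and 0.589 of RT1-Da in postSTC1, preSTC1 and preCTC1. It stood at 0.339, 0.326 and 0.355 in postSTC5, preSTC5 and preCTC5, and at 0.276, 0.266 and 0.238 in postSTC7, preSTC7 and preCTC7. The values of the 3 numbers did not overlap, although the level of RT1-Da itself differed between the groups. Replicate 9 had 0.267 in preSTC9 and 0.252 in preCTC9, within the range of replicate 7, and replicate 2 had 0.639 in postSTC2.

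RT1-Bb over RT1-Ba was lowest in replicate 1, at 0.499, 0.522 and 0.512 in postSTC1, preSTC1 and preCTC1. It was 0.783, 0.875 and 0.927 in postSTC5, preSTC5 and preCTC5, and 1.03, 1.11 and 1.19 in postSTC7, preSTC7 and preCTC7. RT1-Ba over RT1-Da was 0.194 to 0.235 in replicate 5, 0.459 to 0.623 in replicate 7 and 0.746 to 1.00 in replicate 1. Replicate 9 was not told apart from replicate 7. It had RT1-Bb over RT1-Ba of 1.01 in preSTC9 and 1.06 in preCTC9, and RT1-Ba over RT1-Da of 0.608 and 0.490. In postSTC2 the values were 0.617 for RT1-Bb over RT1-Ba and 1.04 for RT1-Ba over RT1-Da. The largest of these ratios exceeded the smallest 5.38 times over the 12 libraries for RT1-Ba over RT1-Da, and 1.43 times for Cd74 over RT1-Da. RT1-DMb over RT1-DMa ran from 0.960 to 1.81 and overlapped between the numbers.

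The labels do not say what a replicate number marks. Class II genes differ strongly in sequence between rat strains and haplotypes, the assembly named in the submitters' processing notes is that of the BN strain, and how reads from other alleles were counted was not tested. Cd74 over RT1-Da averaged 2.45 ± 0.26 in postSTC, 2.45 ± 0.20 in preSTC and 2.04 ± 0.10 in preCTC (SD, n = 4), with an exact permutation p of 0.0286 for each of postSTC and preSTC against preCTC and an adjusted p of 0.172.

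**Figure D4:**
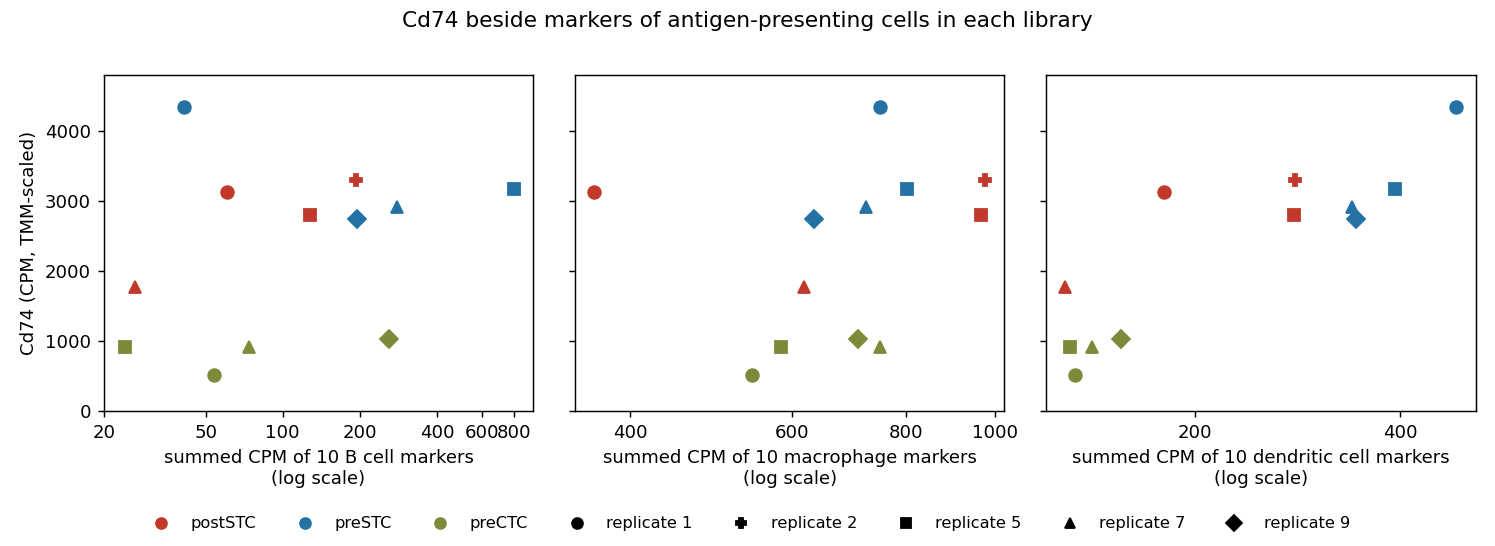
Cd74 (CPM, linear axis from 0) against the summed CPM of 10 markers each of B cells, macrophages and dendritic cells (log axes), with colour for the group and marker shape for the replicate number. The highest Cd74, 4347 CPM in preSTC1, goes with 41.3 CPM of B cell markers, and preSTC5, with 798 CPM of B cell markers, has 3168 CPM of Cd74.

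Markers of cells that carry class II molecules were counted in the same way. For all the marker lists, the shares of all genes tested are the measure to set beside the counts. They were 11.1% higher and 6.9% lower in postSTC against preSTC, and 19.1% and 19.6% in preSTC against preCTC. In postSTC against preCTC they were 9.27% and 7.37%. Of 9 tested dendritic cell markers, 6 were higher in preSTC than in preCTC, 3 were higher in postSTC than in preCTC, and 1, Irf8, fell in postSTC against preSTC. The summed dendritic cell markers ranged over 129 to 281 CPM in postSTC, 340 to 483 CPM in preSTC and 131 to 156 CPM in preCTC, with Cd209 at 0 in 3, 2 and 4 libraries of these groups. Irf8, which dendritic cells need to develop, averaged 120 ± 34.3 CPM in postSTC, 279 ± 49.9 CPM in preSTC and 76.1 ± 5.53 CPM in preCTC (SD, n = 4). Its log2 fold change in postSTC against preSTC was -1.22 ± 0.20 (SE, edgeR adjusted p = 0.00254). Irf8 made up 49.9% to 63.1% of the sum in postSTC, 69.2% to 72.9% in preSTC and 51.6% to 59.7% in preCTC. Without it the other 9 markers summed to 54.6 to 139.9 CPM in postSTC, 94.3 to 131 in preSTC and 53.8 to 73.8 in preCTC, so postSTC overlapped with both groups. The part of these cells in the class II results was not tested.

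Of 10 macrophage markers, 1 rose in postSTC against preSTC, 1 was lower in preSTC than in preCTC and 1 was higher in postSTC than in preCTC. Their sums overlapped, at 365 to 974 CPM in postSTC, 634 to 800 in preSTC and 543 to 749 in preCTC. Mrc1, the mannose receptor, was the gene in the first 2 of these counts, with log2 fold changes of 1.32 ± 0.29 and -1.48 ± 0.29 (SE, edgeR adjusted p = 0.00998 and 0.00186). Of 10 B cell markers, 1 was higher in preSTC than in preCTC with sums of 26.6 to 193 CPM in postSTC, 41.3 to 798 in preSTC and 24.1 to 261 in preCTC. In the other comparisons edgeR called 0 B cell markers, while 2 passed an unadjusted p of 0.05 and DESeq2 called 2 in postSTC against preSTC, and both counts were 0 in postSTC against preCTC.

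Of 10 T cell markers, 7 were higher in preSTC than in preCTC and 2 were higher in postSTC than in preCTC. Of 8 general leukocyte markers, 6 were higher in preSTC than in preCTC. Against preSTC, edgeR called 0 of either list in postSTC, where DESeq2 and an unadjusted p of 0.05 each gave 2 T cell markers and 1 leukocyte marker. Against preCTC, it called 0 leukocyte markers in postSTC, DESeq2 called 0, and 3 passed an unadjusted p of 0.05. Summed leukocyte markers were 380 to 903 CPM in postSTC, 633 to 1478 in preSTC and 317 to 658 in preCTC. Of 10 lymphoid follicle genes, edgeR called 0 in postSTC against preSTC (1 at an unadjusted p under 0.05, and 0 by DESeq2), 1 was higher and 1 lower in preSTC against preCTC, and 1 was lower in postSTC against preCTC. Of 10 epithelial markers, 1 fell in postSTC against preSTC, 3 were higher in preSTC than in preCTC, and 1 was higher and 1 lower in postSTC against preCTC. The matching shares of all genes tested were 6.9%, 19.1%, 9.27% and 7.37%. Of 10 smooth muscle markers, 5 were higher in postSTC against preSTC, 10 lower in preSTC against preCTC and 4 lower in postSTC against preCTC.

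Set against these sums, Cd74 differed between groups in some cases and not in others. Over the summed leukocyte markers, Cd74 was 3.095 to 8.25 in postSTC, 2.14 to 6.87 in preSTC and 1.55 to 2.66 in preCTC. There preSTC overlapped with both other groups, while postSTC and preCTC did not overlap. Cd74 over the summed macrophage markers was 2.86 to 8.57 in postSTC, 3.96 to 5.81 in preSTC and 0.954 to 1.57 in preCTC, so preCTC did not overlap with either group. Over the summed dendritic cell markers it was 10.0 to 17.4 in postSTC, 7.95 to 9.00 in preSTC and 3.89 to 6.99 in preCTC, and no groups overlapped. Without Irf8 it was 19.98 to 47.0 in postSTC, 26.2 to 33.2 in preSTC and 9.65 to 15.1 in preCTC, so that postSTC and preSTC overlapped. Over the summed epithelial markers it was 0.213 to 0.277 in postSTC, 0.161 to 0.251 in preSTC and 0.0448 to 0.0995 in preCTC. Over the summed B cell markers it overlapped between all groups, at 17.1 to 66.6 in postSTC, 3.97 to 105 in preSTC and 3.92 to 38.0 in preCTC.

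Single members followed the mean of the other members closely over the 12 libraries. Pearson r was 0.981 for RT1-DMb, 0.974 for Cd74 and 0.944 for Ciita, and 0.844 to 0.883 for RT1-Bb, RT1-Ba and RT1-Db1. Each gene was left out of the mean it was set against, and the libraries share their groups. With the group means removed, r was 0.911 for RT1-DMb and 0.888 for Cd74, and 0.508 for RT1-Bb. Outside the members, the 10 genes with the profile most like their mean over 12 libraries were Optn, Fem1c, Apol11a, Tnfsf10, Nlrp5, Chit1, Myrf, Slc30a4, Slc25a44 and P2ry4, with r of 0.976 to 0.959. With the group means removed they were B4galt5, Lpar1, Lix1, Foxf2, Sptan1, Cstf3, Kcnh6, Chd5, Clspn and Tgfbi, with r of 0.945 to 0.875. No gene stood in both lists.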

How the data were processed

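Per the labels' protocols, TRIzol was used for RNA and a VAHTS Universal V6 kit for the libraries. The submitters' processing notes name fastp, HISAT2, HTSeq and assembly mRatBN7.2, and give no versions. The series' design text describes another kit, other tools and a pig genome, and was not used. Strand use in counting and the handling of multi-mapped reads were not stated there. The authors deposited whole read counts per gene and, in a second table, FPKM. Within each gene the deposited FPKM were proportional to the count over the library total.

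Counts were tested in R 4.3.3 with edgeR 4.0.16 (TMM, filterByExpr, 1 quasi-likelihood model of 12 libraries with the group as its only term, two-sided F-test, Benjamini-Hochberg over all 15704 genes, threshold 0.05). The SE is the absolute log2 fold change over the square root of F. Ratios were taken from FPKM and compared with exact permutation tests. Alternatives used limma 3.58.1 and DESeq2 1.42.0, RLE factors, library totals, no filter, log2(FPKM + 0.1), a replicate block, a leukocyte covariate and leaving out each library. The test was checked on simulated data. Counts differed between replicates of a group by more than sampling noise (chi-square per gene of at least 32), and none was counted as a repeat of another. All 12 libraries are in batch 1 per the labels.

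The members and the 12 gene lists, of 123 genes, were chosen with earlier results of these data known. A further gene of the interferon-gamma list is not reported here. Genes were named from the members, list genes called in a comparison (at most 4 per list) and the most abundant list gene. The 10 genes most alike by each measure were also named. Not every list gene that qualified is named. Same-numbered libraries of postSTC and preSTC correlated at 0.236, 0.158 and 0.168 in their deviations from the group means, above 0.1 in every pair, so these numbers were taken to pair those groups. Numbers 2 and 9 have no partner there. The differently numbered postSTC2 and preSTC5 stood at 0.13, also above 0.1.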

Additional observations from a re-analysis of the deposited data

Results flagged for a closer look

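Of 24 groups of 4 libraries (8 genes in 3 groups), 3 held a library whose gap to its nearest neighbour exceeded Dixon's 95% critical value, as a share of the group's range. Chance flags about 1 in 20 groups. RT1-DMa stood at 164.3 CPM in preSTC1, above the other preSTC libraries. RT1-Da stood at 203.9 CPM in preCTC1, below the other preCTC libraries. RT1-Bb stood at 289.6 CPM in preSTC5, below the other preSTC libraries. All 3 genes kept their calls in preSTC against preCTC when the library in question was left out.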

How the results depend on the processing

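No member was called in postSTC against preSTC under any of 22 alternatives, and 7 or 8 of 8 were called in preSTC against preCTC. In postSTC against preCTC, 6 to 8 members were called with single libraries left out, where 11.2% to 19.6% of all genes were called. With limma on log2(FPKM + 0.1), 2 were called, beside 9.99% of all genes. With the replicate block on 12 libraries, 7 were called, beside 8.91% of all genes. With the block on 8 libraries, 0 were called, but so were only 0.98% of all genes, so that count says little about the members. Whether the number pairs preCTC with the other groups is not settled. Over all genes the correlations of same-numbered libraries were 0.22, -0.0159 and 0.0544 in postSTC against preCTC and reached -0.0278 in preSTC against preCTC, short of the 0.1 required of every pair. Over the 8 members they were 0.93, 0.88 and 0.869 in postSTC against preCTC and 0.833 to 0.864 in preSTC against preCTC, while postSTC7 stood at 0.897 with preCTC9. The differently numbered preSTC9 with preCTC7 and preSTC7 with preCTC9 stood at 0.856 and 0.839, so numbers 7 and 9 were not told apart. With the block on the 8 libraries, the members of postSTC against preCTC lay at 1.27 to 1.78 (log2) with adjusted p of 0.125 to 0.195.

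Genes called in all, postSTC against preSTC, numbered 2833, or 844 with library totals, 653 with FPKM, 66 and 1746 with the replicate block on 8 and 12 libraries, and 1609 to 3684 with a library left out. In preSTC against preCTC they numbered 6077, or 3966 with library totals and 3753 with FPKM. In postSTC against preCTC they numbered 2612, or 1550 with library totals, 1569 with FPKM, 1455 in a fit of 8 libraries, and 151 and 1399 with the block on 8 and 12. With library totals the median of all genes moved to -0.18 in preSTC against preCTC, where 1174 genes were higher and 2792 lower, against 2995 and 3082. It moved to -0.20 in postSTC against preCTC, with 603 higher and 947 lower, against 1455 and 1157. The members stayed at 1.22 to 1.98 and 1.19 to 2.08 there. In postSTC against preSTC, library totals gave 668 higher and 176 lower, against 1749 and 1084.

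Uncalled log2 fold changes of postSTC against preSTC changed sign. RT1-Ba, at 0.080, was -0.030 with voom, -0.13 with FPKM, -0.38 and -0.30 with the block on 8 and 12 libraries, and -0.36 to 0.57 with a library left out. RT1-Db1, at 0.17, was -0.023 with FPKM, -0.39 and -0.32 with the block, and -0.18 to 0.65 with a library left out. With a library left out, RT1-DMa ran from -0.25 to 0.17 and RT1-Bb from -0.61 to 0.037. The cause was not tested.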

Other observations

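RT1-DOa and RT1-DOb, the chains of the DO molecule, which holds DM in check and is known chiefly from B cells, were looked at after their values were seen. RT1-DOb had 35.0 CPM in preSTC5 and 4.51 to 10.2 CPM in the other preSTC libraries, and preSTC5 also held the highest sum of B cell markers, 798 CPM. Library preSTC5 had the lowest RT1-Ba and RT1-Bb of preSTC. Neither DO gene was called in postSTC against preSTC (edgeR adjusted p = 0.221 and 0.293). Nor was either called in postSTC against preCTC (edgeR adjusted p = 0.584 and 0.784), where all 8 members were. RT1-DOa was higher in preSTC than in preCTC in edgeR's test, with a log2 fold change of 0.89 ± 0.32 (SE, adjusted p = 0.0478), a call lost when any of 9 single libraries was left out.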
